A study of Homo sapiens with 6 samples.

Results

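The genes described here are the protein-coding genes of human chromosome 19 whose symbol is ZNF followed only by digits. They were chosen by chromosome, gene type and symbol. This rule made no use of their levels, but it was set with earlier results of these data known. The rule found 220 of the 25349 genes in the table of counts. The cells were SCC-9, an established line of human tongue squamous carcinoma cells. They received 10 nM of an siRNA directed at exon 7 of MKI67, which encodes the proliferation marker Ki67, or of a nonspecific siRNA. The first group is named siE7 and the other siNC, with 3 libraries each. Both groups were given their siRNA on day 0 and once more, after passaging, on day 2, so the controls had also received siRNA and transfection reagent. Several siRNAs against exon 7 were made for the study, and the one used for these libraries is not named in the sources used here. Nothing states that the libraries of a group came from separate cultures, so the p-values measure the spread between these libraries, which may be technical.

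ZNF genes encode proteins with zinc fingers of the C2H2 type, short loops in which 2 cysteines and 2 histidines hold a zinc ion, and which line up in tandem to read DNA. Many also carry a KRAB box, a short domain that binds the corepressor TRIM28. TRIM28 brings in the histone methyltransferase SETDB1, HP1 proteins and other silencing factors, and the targets of many KRAB zinc finger proteins are transposable elements. Chromosome 19 holds the largest human clusters of these genes, which arose by tandem duplication, so that neighbours are often close relatives.

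One finger with its linker is shown for 3 genes to show the repeat that defines the family and how far its base composition varies between members. The codons of the cysteines and histidines are in capitals. The finger of ZNF875, the member with the smallest p-value, lies at chr19:37362702-37362785 on the plus strand of GRCh38 and holds 51.2% GC. The finger of ZNF91 lies at chr19:23362094-23362177 on the minus strand and holds 41.7% GC. The finger of ZNF865 lies at chr19:55614294-55614377 on the plus strand and holds 63.1% GC. Each of the 84-base stretches is coding sequence within 1 exon.
ZNF875: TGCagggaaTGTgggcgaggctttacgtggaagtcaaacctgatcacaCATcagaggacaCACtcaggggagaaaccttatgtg
ZNF91: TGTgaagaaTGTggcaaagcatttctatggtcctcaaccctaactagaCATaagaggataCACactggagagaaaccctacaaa
ZNF865: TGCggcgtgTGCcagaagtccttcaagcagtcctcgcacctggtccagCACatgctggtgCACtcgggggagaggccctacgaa

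Members can also be nearly identical to each other, which bears on how reads are assigned. ZNF417 and ZNF587 encode proteins that are 98.1% identical. Their coding sequences of 1725 bases differ at 16 positions, and the longest stretch without a difference is 538 bases. The 150-base coding window with the most differences is shown, with the 5 differing bases in capitals. It lies at chr19:57908793-57908942 on the minus strand for ZNF417 and at chr19:57859748-57859897 on the plus strand for ZNF587. Of all windows of that length in the coding sequence, 37.2% hold no difference.
ZNF417: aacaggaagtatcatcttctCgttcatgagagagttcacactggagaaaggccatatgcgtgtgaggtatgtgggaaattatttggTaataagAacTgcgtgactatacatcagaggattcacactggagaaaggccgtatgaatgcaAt
ZNF587: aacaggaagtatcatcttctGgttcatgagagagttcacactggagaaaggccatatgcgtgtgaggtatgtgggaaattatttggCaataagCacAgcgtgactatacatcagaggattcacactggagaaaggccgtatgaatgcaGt

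The libraries held between 25608192 and 29550264 counts on genes. MKI67 was at 1072, 1029 and 1077 CPM (counts scaled to library size with TMM factors) with siNC and at 111.8, 124.5 and 107.8 CPM with siE7. Its log2 fold change was -3.21 (SE 0.114, adjusted p = 6.71e-08, edgeR's quasi-likelihood test, adjusted over all genes tested by the Benjamini-Hochberg method). The 7 squamous markers, among them KRT5, KRT14 and TP63, summed to 23100 to 24600 CPM with siNC and 21200 to 27700 CPM with siE7. Of the markers of other cell types, PTPRC and CD3E had no row, CD14 reached 3.52 CPM, the 2 endothelial markers together reached 0.341 CPM and the 3 fibroblast markers 21.9 CPM, nearly all of it COL1A1. siE7 replicate 1 stood apart from the other siE7 libraries. A chi-square test of the counts gave 61.1 and 72.7 per degree of freedom between it and siE7 replicates 2 and 3, against 5.54 to 6.22 within all other pairs of the same group. Its log2 ratio to the mean of siNC rose with the GC content of the gene (Spearman's rho 0.339 across 14645 genes, which are not independent), whereas in siE7 replicates 2 and 3 it fell (-0.251 and -0.258). The main counts below are therefore given with and without siE7 replicate 1, and after removing each library's GC trend.

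Of the 220 chromosome 19 ZNF genes, 185 had enough counts to be tested. The other 35 had at most 21 counts in a library, and no change with 6 libraries is given for them. With siE7, 71 of the 185 genes (38.4%) rose at an adjusted p under 0.05, and none fell. Among all 14661 genes tested, 18.0% rose and 16.0% fell. Among the members 2 had an unadjusted p under 0.05 in the lower direction, against 2938 of all 14661 genes. DESeq2 also called 0 members lower, where 15.1% of all genes fell. The median log2 fold change of the members was 0.53, a 1.44-fold higher level, against 0.08 for all genes. A change in a bulk library does not tell more RNA per cell from more cells that express the gene.

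The 71 higher members had log2 fold changes from 0.46 to 1.73, with a median of 0.97. A log2 fold change above 1 together with an adjusted p under 0.05, the definition of a DEG, was met by 33 members upward and by 0 downward. The share upward was 17.8% for members and 7.38% for all genes, and 4.84% of all genes were DEGs downward. Of the 114 members that did not pass the test, 92 had log2 fold changes above 0 and 22 below, from -1.05 to 1.31. Levels of most members were low. Their mean with siNC lay between 0.225 and 88.2 CPM with a median of 2.03 CPM. When the members were ranked by the sum of their siNC and siE7 means, 14 of the lowest 62 rose, against 36 of the highest 62. This rank includes the siE7 level, so it depends on the change itself. Among all genes 18.0% rose.

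The shift was seen in each siE7 library. The median log2 ratio of the 185 members to the mean of siNC was 0.30, 0.52 and 0.53 in siE7 replicates 1, 2 and 3, and 0.03, -0.04 and -0.02 in the siNC libraries. The levels of the members summed to 926.3, 895.2 and 919.7 CPM with siNC and to 1219, 1343 and 1344 CPM with siE7, so the groups did not overlap. For single genes, the 3 siE7 libraries lay above the 3 siNC libraries for 86 members (46.5%) and below them for 2, ZNF428 and ZNF829. Across all genes 24.9% lay above and 22.7% below without overlap.

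**Figure D1:**
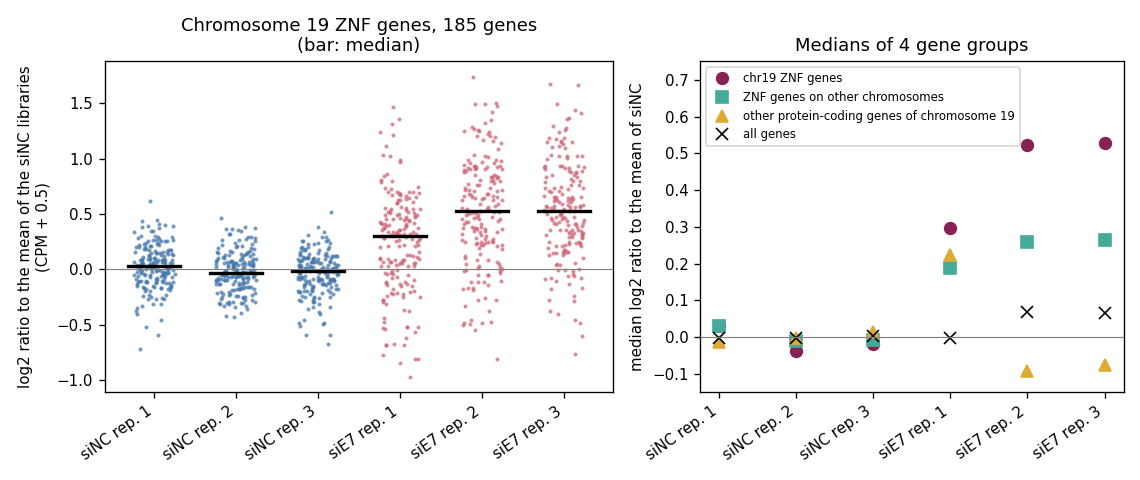
Log2 ratio of CPM + 0.5 to the mean of the siNC libraries (y axis) in each library (x axis). The left panel has 1 point per tested chromosome 19 ZNF gene and a bar at the median, and the right panel gives the medians of 4 gene groups; the members' medians lie between 0.30 and 0.53 in the siE7 libraries and between -0.04 and 0.03 in the siNC libraries.

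ZNF genes on other chromosomes and the other protein-coding genes of chromosome 19 were set beside the members. Of 204 tested ZNF genes on other chromosomes, 57 rose and 9 fell, with a median log2 fold change of 0.29. Without siE7 replicate 1 these were 84 and 24 of 205, with a median of 0.24, and with the GC trend removed 74 and 19, with a median of 0.23. Of 768 other protein-coding genes of chromosome 19, 130 rose and 126 fell, with a median of 0.04. Without siE7 replicate 1, 145 of 778 rose and 321 fell, and the median turned to -0.14, whereas with the GC trend removed 183 rose and 194 fell, with a median of 0.01. The difference between these groups of genes and the members was not tested.

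ZNF875 had the smallest p-value. It was at 15.6, 14.25 and 14.7 CPM with siNC and at 41.9, 38.5 and 35.65 CPM with siE7, a 2.61-fold higher level (log2 fold change 1.38, SE 0.130, adjusted p = 2.13e-05, edgeR). All siE7 libraries lay far above all siNC libraries, and siE7 replicate 1 was the highest. ZNF616 was at 1.82, 1.36 and 1.63 CPM with siNC and at 4.39, 5.47 and 6.18 CPM with siE7. Its log2 fold change of 1.73 was the largest among the higher members. ZNF426 went from 3.24, 2.80 and 3.60 CPM to 7.56, 8.19 and 11.4 CPM, and ZNF577 from 4.33, 4.12 and 2.88 CPM to 7.96, 11.6 and 11.1 CPM. In these 3 genes siE7 replicate 1 was the lowest siE7 library, but it still lay above every siNC library. All are KRAB zinc finger genes.

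ZNF581, in which no KRAB box was found, was at 8.91, 8.81 and 7.50 CPM with siNC and at 17.6, 16.4 and 15.4 CPM with siE7. ZNF114, with 3 fingers found, was at 39.7, 38.7 and 47.3 CPM with siNC and at 64.0, 100.3 and 108.2 CPM with siE7. Its rise in siE7 replicate 1 was less than in the other siE7 libraries. ZNF550 and ZNF45 rose with log2 fold changes of 1.11 and 1.08. The adjusted p-values of the 8 genes with the smallest p-values lay between 2.13e-05 and 0.00126, and in all 8 the groups did not overlap. Exons of ZNF616, ZNF577 and ZNF581 overlap another gene on the same strand, so their reads may be shared.

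**Figure D2:**
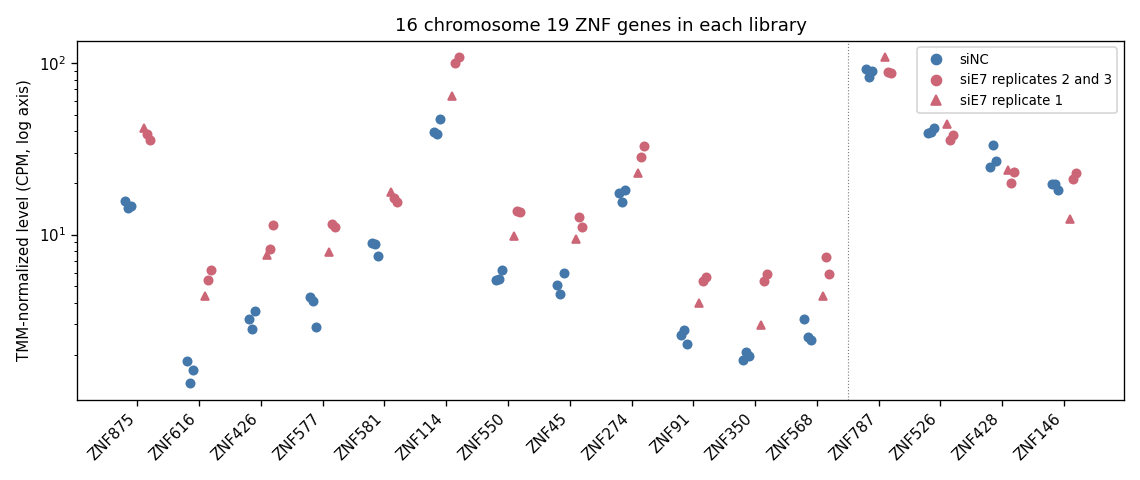
TMM-normalized level in CPM on a log axis (y) of 16 chromosome 19 ZNF genes (x), with 1 point per library and a triangle for siE7 replicate 1. In the 12 genes left of the dotted line, which rose, every siE7 point lies above every siNC point.

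Per length of the gene model, ZNF787, ZNF114, ZNF428 and ZNF526 had the highest levels, at 24.8, 22.0, 16.2 and 9.34 CPM per kb. Of these ZNF114 rose. ZNF787 was at 91.9, 83.15 and 89.5 CPM with siNC and at 108.4, 88.8 and 87.2 CPM with siE7. Its groups overlapped, and the log2 fold change of 0.10 (adjusted p = 0.532) turned to -0.06 without siE7 replicate 1. ZNF428 was at 24.6, 33.1 and 26.9 CPM with siNC and at 23.7, 19.96 and 23.2 CPM with siE7. It did not pass the test with all libraries (log2 fold change -0.34, adjusted p = 0.100) and was called lower without siE7 replicate 1 (-0.44, adjusted p = 0.000774). ZNF526 had -0.04 with all libraries (adjusted p = 0.834) and was called lower without siE7 replicate 1 (-0.19, adjusted p = 0.0314). Its sign turned (0.13) when libraries were scaled by their totals only. With the GC trend removed, ZNF428 was called lower (-0.34, adjusted p = 0.027), whereas ZNF526 was not (-0.04, adjusted p = 0.713).

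Several members have known targets or partners. ZNF91, which represses SVA retrotransposons, was at 2.59, 2.76 and 2.31 CPM with siNC and at 3.98, 5.36 and 5.69 CPM with siE7 (log2 fold change 0.97, adjusted p = 0.00567). ZNF93, which binds LINE elements, was under 1 CPM in all libraries and had a log2 fold change of -0.28 (adjusted p = 0.673). ZNF611 had 0.50 (adjusted p = 0.161) and ZNF765 0.84 (adjusted p = 0.0795). Of this pair ZNF765 showed no overlap between the groups. ZNF611 was called higher only without siE7 replicate 1, and ZNF765 only with library totals and with at least 10 counts in every library.

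ZNF274, which binds the ends of ZNF genes and recruits SETDB1 there, was at 17.5, 15.5 and 18.25 CPM with siNC and at 22.8, 28.2 and 33.0 CPM with siE7 (log2 fold change 0.71, adjusted p = 0.00562). ZNF350, a partner of BRCA1, rose from 1.86, 2.08 and 1.97 CPM to 2.97, 5.40 and 5.86 CPM. ZNF568, whose mouse counterpart represses a placental Igf2 transcript, rose from 3.24, 2.52 and 2.42 CPM to 4.39, 7.36 and 5.92 CPM. ZNF473, which takes part in the processing of histone pre-mRNA, and ZNF649 had log2 fold changes of 0.51 each (adjusted p = 0.0426 and 0.0385). Both calls were lost with DESeq2, with RLE factors, with no filter on low counts, with the replicate block, and when any library other than siE7 replicate 1 was left out. The imprinted gene ZNF331 had 0.53 (adjusted p = 0.0568) and ZNF224 had 0.47 (adjusted p = 0.106). Both were called higher without siE7 replicate 1, with or without removal of the GC trend. ZNF331 was also called with upper-quartile factors, library totals and at least 10 counts in every library. The same held for ZNF331 with the GC trend removed, with or without the replicate block. In the other settings neither was called. ZNF146, which consists almost wholly of fingers, was at 19.6, 19.6 and 18.1 CPM with siNC and at 12.25, 21.0 and 22.8 CPM with siE7, so that siE7 replicate 1 was the lowest of all libraries and the others of its group the highest. ZNF382 had no row in the table.

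Without siE7 replicate 1, 96 of 191 members tested rose and 5 fell, where 28.9% of all genes rose and 29.5% fell. The median log2 fold change of the members was 0.56, against 0.02 for all genes. Higher in both fits were 70 members, 26 were higher only without siE7 replicate 1, and ZNF471 was higher only with it. Such overlaps were not counted for all genes. The 5 lower members were ZNF296, ZNF428, ZNF526, ZNF574 and ZNF66, named after their values were seen. The first 4 hold 58.4% to 67.4% GC and no KRAB box was found in them. ZNF66 was among the 6 members tested without siE7 replicate 1 but not with 6 libraries. Its call rests on 16, 16 and 8 counts with siNC and on 4 and 2 in siE7 replicates 2 and 3. In ZNF296 the siNC libraries were at 8.83, 8.05 and 8.48 CPM and the siE7 libraries at 8.84, 5.80 and 4.78 CPM, so that siE7 replicate 1 lay at the level of siNC and the others below it. Among the 185 members tested in both fits, 15 changed sign.

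**Figure D3:**
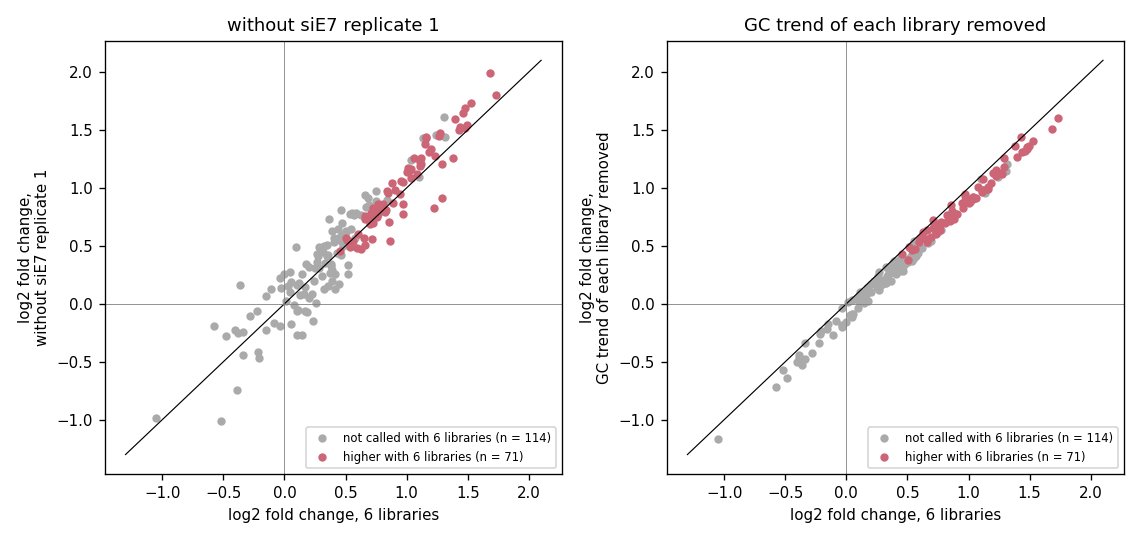
Log2 fold change of siE7 against siNC for the 185 tested members with 6 libraries (x axis), against the value without siE7 replicate 1 (left, y axis) and after removing each library's GC trend (right, y axis). Members called higher with 6 libraries are red, the line marks equal values, and 15 members change sign in the left panel.

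The members whose log2 fold change moved most when siE7 replicate 1 was left out were ZNF880, ZNF420, ZNF784 and ZNF599. ZNF880 was at 0.486, 0.280 and 0.682 CPM with siNC and at 0, 0.543 and 0.589 CPM with siE7, and its log2 fold change went from -0.36 to 0.16. ZNF784 went from 0.14 to -0.27, and ZNF420 from -0.52 to -1.01. None of these passed the test in either fit. ZNF599 was at 1.05, 0.721 and 0.909 CPM with siNC and at 2.97, 1.81 and 1.50 CPM with siE7, and passed in both (log2 fold changes 1.22 and 0.82). Its call was lost with the GC trend removed and siE7 replicate 1 left out together (0.66), and without siNC replicate 2 (1.09) or 3 (1.23).

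Most members are poor in GC, with a median of 43.6% over their exons against 48.5% for all genes tested and 59.6% for the other protein-coding genes of chromosome 19. Across the 185 members, Spearman's rho of the log2 ratio with GC content was 0.446, -0.065 and -0.105 in siE7 replicates 1, 2 and 3. All genes had 0.339, -0.251 and -0.258. The 62 members lowest in GC (33.9% to 42.0%) had median log2 ratios of 0.06, 0.45 and 0.50 in siE7 replicates 1, 2 and 3, where the 3457 genes from 23.1% to 42.1% GC had -0.30, 0.28 and 0.30. The 62 members highest in GC (44.9% to 70.9%) had 0.46, 0.40 and 0.43, where the 9333 genes from 44.9% to 76.6% GC had 0.12, -0.04 and -0.04. The 61 members between them had 0.27, 0.72 and 0.63, against -0.11, 0.22 and 0.22 for the 1855 genes from 42.1% to 44.9% GC. The members' median was the higher one in each of these comparisons, though the GC content within the lowest and highest ranges was not matched. Higher at an adjusted p under 0.05 were 18 of 62, 26 of 61 and 27 of 62 members from the lowest to the highest GC range, against 569 of 3457, 375 of 1855 and 1692 of 9333 of all genes.

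**Figure D4:**
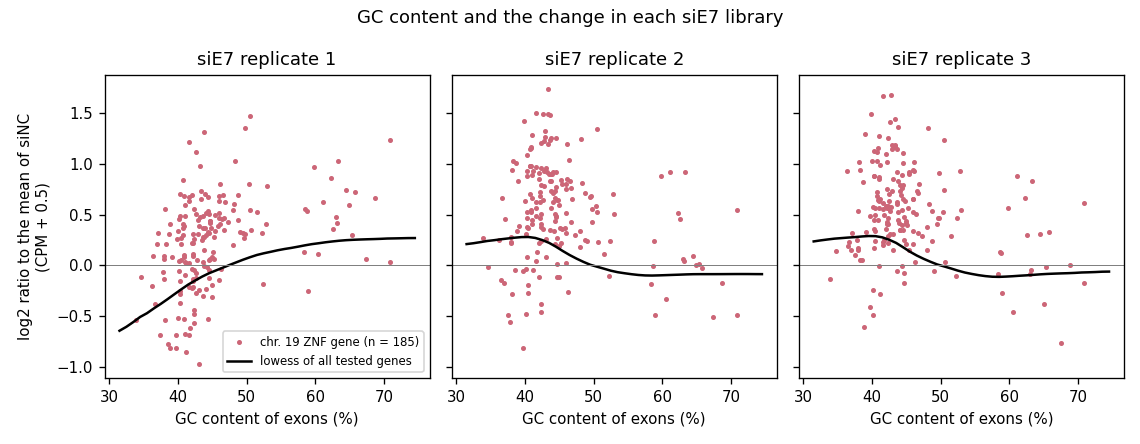
Log2 ratio of CPM + 0.5 to the mean of siNC (y axis) against the GC content of the exons (x axis) for the 185 tested members in each siE7 library, with the lowess trend of all tested genes as a line. The trend rises in siE7 replicate 1 and falls in siE7 replicates 2 and 3, and most members lie above it in all 3.

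After removal of each library's GC trend, the members' median log2 ratio was 0.39, 0.35 and 0.33 in siE7 replicates 1, 2 and 3, closer together than before. That trend was fitted on all tested genes, not on the members alone. Of the 185 members 79 rose and 4 fell, where 23.6% of all genes rose and 25.4% fell, and the median log2 fold change was 0.42. The 4 lower members were ZNF296, ZNF428, ZNF507 and ZNF829. With the trend removed and siE7 replicate 1 left out together, 84 of 191 rose and 6 fell, where 26.6% of all genes rose and 29.8% fell. Higher in all 4 fits were 69 members. Leaving out a library other than siE7 replicate 1 left fewer calls. Without siNC replicates 1, 2 or 3, 46, 37 and 35 members rose, and without siE7 replicates 2 or 3, 43 and 48. The share of all genes that rose was also lower in these fits, between 10.6% and 13.9%. The median log2 fold change stayed between 0.48 and 0.56 over these fits and the fit without siE7 replicate 1. In every setting tried 28 members were higher, among them ZNF875, ZNF616, ZNF426, ZNF91, ZNF274, ZNF350 and ZNF568. How many of all genes were higher in all 4 fits or in every setting was not counted.

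A KRAB box was found in the translated coding sequence of 187 of the 220 members (85.0%), and in 106 of 222 ZNF genes on other chromosomes (47.7%). The members had 1 to 36 fingers with a median of 12. Of 154 tested members with a KRAB box 63 rose, with a median log2 fold change of 0.56. Of 31 tested members in which none was found 8 rose, with a median of 0.23. Among all genes 18.0% rose, with a median of 0.08. Without siE7 replicate 1 the medians were 0.64 and 0.14. Then 88 of 160 members with the box rose and 1 fell. Of 31 without it 8 rose and 4 fell, where 28.9% of all genes rose and 29.5% fell. With the GC trend removed the medians were 0.47 and 0.17, and 70 and 9 members rose, where 23.6% of all genes rose. The groups also differed in GC content, with medians of 42.8% and 58.9%, and its part in the difference was not tested.

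The members fall into 15 groups along the chromosome when a gap of over 1 Mb ends a group. The largest, near the end of the long arm from ZNF628 to ZNF446 (chr19:55476617-58481230), holds 55 members, of which 48 were tested and 27 rose, with a median log2 fold change of 0.61. With 6 libraries 18.0% of all genes rose. The group from ZNF575 to ZNF296 (chr19:43525497-45076478) had the highest median among groups with over 10 tested members, 0.81, and 8 of 19 rose. Without siE7 replicate 1, 17 of its 21 tested members rose and 2 fell, where 28.9% of all genes rose and 29.5% fell. With the GC trend removed 10 rose and 2 fell, with a median of 0.69, where 23.6% of all genes rose. With both together 13 rose, with a median of 0.66, where 26.6% of all genes rose. The group from ZNF175 to ZNF331 (chr19:51571283-53580269) had a median of 0.50, and 10 of 31 rose. The group from ZNF101 to ZNF254 (chr19:19668796-24129968), which holds ZNF91, had the lowest median among groups of that size. There 2 of 19 tested members rose, ZNF91 and ZNF486, with a median of 0.12, against 69 of 166 and a median of 0.55 in all other groups. Among all genes 18.0% rose, with a median of 0.08. Without siE7 replicate 1, 4 of 22 tested members of this group rose and 1 fell, where 28.9% of all genes rose. With the GC trend removed 2 rose, and 2 with both together, where 23.6% and 26.6% of all genes rose. The group's median was 0.10 with the GC trend removed, 0.15 without siE7 replicate 1 and -0.07 with both together, where the other groups had 0.47, 0.60 and 0.52. Its tested members had a median GC content of 38.1% and a median level of 1.04 CPM with siNC, against 43.8% and 2.14 CPM in the other groups. The part of GC content and level in this difference was not tested.

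**Figure D5:**
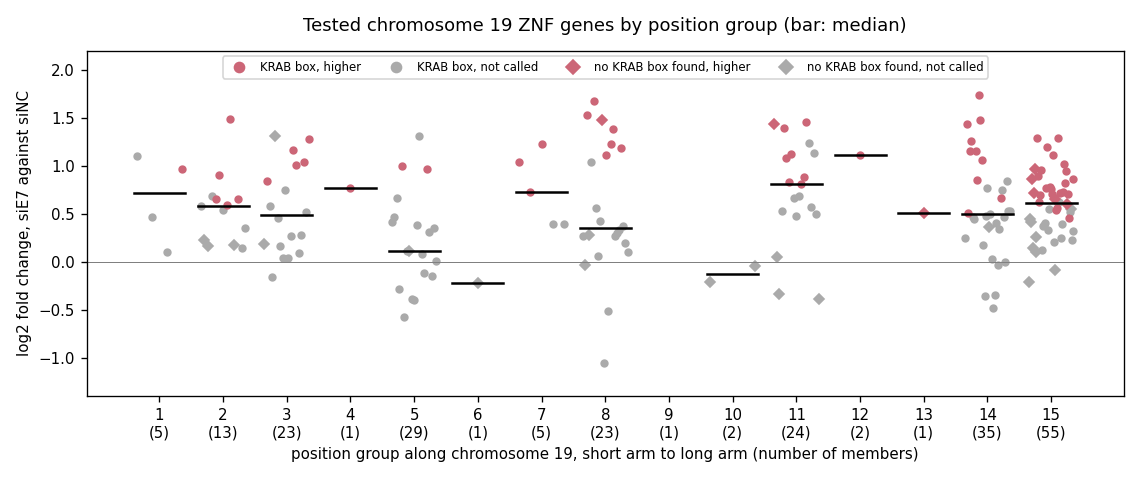
Log2 fold change of siE7 against siNC (y axis) of the tested members in 15 position groups in order along chromosome 19 (x axis, number of members in brackets), with a bar at each median. Red marks members called higher and diamonds members without a KRAB box found; the median is 0.12 in group 5, which holds ZNF91, and 0.61 in group 15.

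A relative with a protein at least 80% identical was found for 32 members, and their values are uncertain where reads were shared between relatives. Of the 28 tested 9 rose, with a median log2 fold change of 0.40, against 62 of 157 and 0.54 for the others. Among all genes 18.0% rose, with a median of 0.08. ZNF417 was at 5.18, 4.60 and 4.81 CPM with siNC and at 7.12, 12.3 and 10.3 CPM with siE7, and ZNF587, shown beside it above, at 10.2, 9.49 and 10.8 CPM and at 12.95, 18.1 and 19.5 CPM. Both rose, with log2 fold changes of 1.02 and 0.73. Exons of 132 members overlap those of another gene. Among the 73 tested members without such an overlap 30 rose, with a median of 0.50, where 18.0% of all genes rose.

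Genes for partners of KRAB zinc finger proteins were read from a list. Of its 22 genes listed for the KRAB corepressor complex and heterochromatin, 1 rose and 6 fell, where 18.0% of all genes rose and 16.0% fell, and 15 did not pass the test. The median log2 fold change was -0.17. TRIM28, which binds the KRAB box, was at 182.2, 182.2 and 184.1 CPM with siNC and at 158.8, 111.5 and 116.9 CPM with siE7 (log2 fold change -0.50, SE 0.139, adjusted p = 0.0162, edgeR). All siE7 libraries lay below all siNC libraries, and siE7 replicate 1 was the nearest to them. SETDB1, the histone methyltransferase, had 0.24 (adjusted p = 0.150). CBX5, an HP1 protein, fell by 0.65 on the log2 scale, whereas CBX1, another, rose by 0.37, a call that was lost with DESeq2, with RLE factors, and when any library other than siE7 replicate 1 was left out. SUV39H1, a histone methyltransferase, and ATRX, a chromatin remodeller, fell by 0.62 and 0.93. DNMT1, which maintains DNA methylation, and UHRF1, which recruits it, fell by 0.58 and 0.71. Without siE7 replicate 1, 4 genes of this list rose and 12 fell, where 28.9% of all genes rose and 29.5% fell. Leaving out any other library left 0 genes of the list higher and 4 or 5 lower, where 10.3% to 12.9% of all genes fell.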

How the data were processed

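RNA sequencing of 6 SCC-9 libraries was analysed. The authors deposited whole-number counts of reads per gene, without normalization. The submitters' processing notes name HISAT2, DESeq2 and GRCh38. The counting tool and its use of the strand are not given in the sources used here. Samples were grouped by their titles.

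Genes were filtered by filterByExpr, scaled by TMM and compared by the quasi-likelihood test of edgeR 4.0.16 (R 4.3.3) with robust dispersions and Benjamini-Hochberg adjustment over 14661 genes. The threshold was an adjusted p of 0.05, and for a DEG also a log2 fold change of 1. Ratios per library used CPM + 0.5. The GC trend was a lowess (span 0.3) per library, entered as an offset. On counts simulated from the means and library sizes of these data with 200 changed genes, edgeR called 192 (96%) and 9 unchanged genes of 14486 tested. DESeq2 1.42.0 called 183 (91.5%) and 15 of 14661. The simulation gave every gene the same dispersion, had no GC trend and no library like siE7 replicate 1. Its changes were larger than those of most members, so these rates do not describe the calls for the members.

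Positions, exons and GC content came from GENCODE release 44 on GRCh38, which matched 25283 of 25349 identifiers and all 220 members. Proteins were translated from its canonical coding sequences, in place of the RefSeq proteins that had been planned. KRAB boxes were found with a profile of 207 seed proteins (pyhmmer 0.12.3, E-value under 1e-05), fingers by pattern and relatives with blastp 2.17.0. Finger and KRAB counts depend on these searches.

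The members and gene lists were chosen with earlier results of these data known. Named genes were the 8 smallest p-values among members called in each direction, the 4 highest levels per kb, the 4 that moved most without siE7 replicate 1, members with known roles, TRIM28, SETDB1 and the called genes of the corepressor list, and MKI67. Others illustrate sequences, position groups or counts and were chosen after their values were seen. Alternatives were DESeq2, other scalings and filters, GC removal, a replicate block and leaving out each library. Python 3.11.15, pandas 2.3.3, numpy 2.4.6 and matplotlib 3.10.9 were used.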

Additional observations from a re-analysis of the deposited data

How the results depend on the processing

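The number of higher members was 55 to 86 under the alternatives that kept all libraries, within 1.5 times of 71, and 35 to 96 with 1 library left out. It was lowest without siNC replicate 3 and highest without siE7 replicate 1. With all libraries kept, 169 to 220 members were tested, and 11.6% to 27.5% of all genes rose. DESeq2 gave 55 of 205 members, where 12.7% of all genes rose. Library totals gave 86 of 185, where 27.5% of all genes rose. Fits that leave 2 libraries in a group share the spread of the other group. The number of lower members, 0, was 1 with RLE factors and 1 with at least 10 counts in every library, 4 with the GC trend removed, 6 with that and without siE7 replicate 1 together, and 0 to 5 with 1 library left out. The number of DEGs upward, 33, was 17 to 38 with 1 library left out, 22 with DESeq2 and 20 with the replicate block and GC trend removed. DEGs downward, 0, were 1 with RLE factors, 1 with the minimum of 10 counts, 1 with the GC trend removed, 2 with that and without siE7 replicate 1, and 0 to 1 with 1 library left out. The median log2 fold change of the members was 0.695 with library totals, which moved the median of all genes by 0.168, and the cause of the other changes was not tested.

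Of the corepressor list, 0 rose with DESeq2 and with RLE factors, 2 with library totals, 3 with GC removal and without siE7 replicate 1 together, and 0 to 4 with 1 library left out. Lower were 12 with GC removal and without siE7 replicate 1 together, and 4 to 12 with 1 library left out. With 90% in place of 80% identity, 4 members had a relative. A gap of 500 kb gave 20 position groups.

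The labels do not say whether the replicate numbers pair the samples, and no pairing was seen. The deviations of same-numbered libraries correlated at -0.0393, -0.0205 and -0.0521. With the replicate block 68 members rose, 0 fell and 30 were DEGs, and with the block and GC trend removed 76 rose, 4 fell and 1 was a DEG downward.

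Of 429 values of 27 named genes under the alternatives, 382 kept direction and side of the threshold, 21 lost the call, 17 gained it and 9 changed sign, all in genes without a call with 6 libraries. Without siE7 replicate 1 these were ZNF787 (-0.064), ZNF880 (0.164), ZNF784 (-0.266) and ZNF146 (0.137). The others were ZNF526 with library totals (0.126) and without siE7 replicate 2 (0.028), ZNF420 without siNC replicate 2 (0.042), ZNF784 with GC removal and without siE7 replicate 1 (-0.13), and ZNF146 with library totals (0.149). Leaving out 1 library gave log2 fold changes between -0.064 and 0.162 for ZNF787, -0.193 and 0.028 for ZNF526, -0.851 and 0.164 for ZNF880, -1.009 and 0.042 for ZNF420, -0.266 and 0.368 for ZNF784, and -0.2 and 0.137 for ZNF146. Low counts limit the test for many members, since 35 could not be tested.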
